A study of Mus musculus with 6 samples.

Results

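The heat shock proteins and their co-chaperones were examined in the limbus of the mouse eye, where cornea meets conjunctiva and where the stem cells of the corneal surface lie. Members were the protein-coding genes whose symbol begins with Hspa, Hspb, Hspd, Hspe, Hsph, Hsp90 or Dnaj, plus Hsf1, Hsf2, Bag1, Bag2, Bag3, Stip1 and Serp1. This gave 81 of the 39089 genes in the table. The place of each protein was set by hand from general knowledge, and counts per place depend on that choice. In this way 49 were set down as cytosolic or nuclear and 13 as belonging to the endoplasmic reticulum (ER). A further 8 were set down as mitochondrial, and 11 as of another or unclear place. Limbal RNA, enriched for poly(A), was sequenced in 6 samples of wild-type mice. In 3 of them the mice had received L-733,060, which blocks the NK1 receptor (the receptor of substance P), by injection under the conjunctiva on day 0 and day 3. The mice of the 3 control samples received sterile water by the same route, on days that the labels do not give, and tissue was taken after a week. The labels give neither age, sex nor strain, and nothing in them says whether each sample is a mouse of its own, so p-values here reflect only how far these samples vary, and that variation may be technical.

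Chaperones keep other proteins from clumping and help them fold. HSP70 proteins bind stretches of unfolded chains. J proteins, the products of the Dnaj genes, hand them those chains and trigger the hydrolysis of ATP, and HSP110 and BAG proteins release the spent nucleotide. HSP90 proteins finish the maturation of kinases and hormone receptors, and the small heat shock proteins hold unfolded chains without ATP. Each compartment has its own set. When unfolded protein gathers in the cytosol, the factor Hsf1 binds inverted repeats of GAA and switches on the inducible cytosolic members. A separate response to unfolded protein in the ER acts on the ER members through the ER stress element, and mitochondria have their own HSP70 and a chaperonin. The small heat shock proteins are relatives of the alpha crystallins, best known as the main proteins of the lens.

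Motifs known from these responses occur in some of the promoters. A promoter window, from 250 bases before to 50 after an annotated start, was found in RefSeq (GRCm38.p6) for 66 of the 81 members. Positions in promoters count from the start base as 0. The pair of facing heat shock units GAANNTTC, a motif that reads the same on both strands, stood in a window of 15 of the 66 members (22.7%), against 9.04% of all 27025 genes with a window. The stretches shown are those of members that moved in opposite directions, with the letters of the motif in capitals, 5′ to 3′ on the strand of the gene. In Hspa1a (chr17:34972227-34972286, minus strand) and Hspa1b (chr17:34959309-34959368, minus strand) the motif lies at -104 to -97, and in Hspb1 (chr5:135887789-135887848, plus strand) at -117 to -110 and again at -97 to -90. In Dnaja1 (chr4:40722318-40722377, plus strand) it lies at -124 to -117, and in Hspd1 (chr1:55088053-55088082, minus strand) at -139 to -132.
Hspa1a: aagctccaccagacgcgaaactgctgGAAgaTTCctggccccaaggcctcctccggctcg
Hspa1b: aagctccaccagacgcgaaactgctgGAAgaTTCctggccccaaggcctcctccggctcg
Hspb1: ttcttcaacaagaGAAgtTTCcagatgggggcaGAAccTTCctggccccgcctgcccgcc
Dnaja1: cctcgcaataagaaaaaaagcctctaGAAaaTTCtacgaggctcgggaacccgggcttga
Hspd1: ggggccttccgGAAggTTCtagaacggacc
Those of Hspa1a and Hspa1b are the same letter for letter, and 247 of the 250 bases before the start match between them (98.8%). Of the 15 members with the motif, 4 were higher with L-733,060 (Dnaja1, Hspb8, Hspd1 and Hsph1), 5 were lower (Bag3, Dnaja4, Hspa1a, Hspa1b and Hspb1), 4 did not pass the test across all genes (Dnajb6, Dnajc27, Hspb6 and Hspe1) and 2 had too few counts to be tested (Dnajc5g and Hspb3). Of all tested genes 41.3% passed that test, 21.4% as higher and 19.9% as lower. A longer form, in which GAANNTTC is followed after 2 bases of any kind by a further GAA, was searched on both strands and always overlaps the shorter one. It stood in windows of 4 members (Dnajb6, Hspd1, Hspe1 and Hsph1), or 6.06% of the 66, against 0.662% of all genes. Hspd1 and Hspe1 share a promoter, and their motif is the same site on chromosome 1, counted once for each gene here and among the 15. A match of letters is a description and not a bound site.

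The ER stress element, searched on both strands as CCAAT and CCACG with 9 bases of any kind between them, was found in windows of 3 members, 4.55% of the 66, against 0.137% of all genes with a window. The 3 members, shown because they are all ER chaperones or co-chaperones, were Hspa5 (chr2:34772010-34772059, plus strand, element at -65 to -47), Hsp90b1 (chr10:86705525-86705664, minus strand, elements at -212 to -194 and -107 to -89) and Dnajc3 (chr14:118937812-118937861, plus strand, element at -105 to -87). Capitals mark the fixed letters of the element, which stands in Hsp90b1 once in each direction.
Hspa5: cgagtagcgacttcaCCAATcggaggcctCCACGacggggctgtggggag
Hsp90b1: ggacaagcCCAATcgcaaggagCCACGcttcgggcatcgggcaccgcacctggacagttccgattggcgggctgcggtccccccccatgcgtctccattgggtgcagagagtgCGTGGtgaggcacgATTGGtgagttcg
Dnajc3: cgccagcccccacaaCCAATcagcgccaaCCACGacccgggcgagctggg
Of these 3, Hspa5 and Hsp90b1 were higher with L-733,060 and Dnajc3 did not pass the test.

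Total counts per sample ran from 18708288 to 23541791, so that 3 counts correspond to 0.127 to 0.16 CPM. Values of single genes are given as normalised CPM, that is, counts relative to a library size scaled by TMM. Each gene was tested in edgeR (quasi-likelihood F test), with p adjusted after Benjamini and Hochberg over the 15712 genes with enough counts and a threshold of 0.05. Markers of other cells changed between the groups. Of 8 leukocyte markers 7 were higher with L-733,060. The 8 summed to 701 to 805 TPM with L-733,060 and 307 to 341 TPM in controls. Itgam, which did not pass, held a large part of both sums, at 251 ± 25.1 TPM with L-733,060 and 248 ± 11.6 TPM in controls (SD, n = 3 each). All 5 corneal epithelial markers were lower (10184.6 to 14747.9 TPM with L-733,060 and 43234.9 to 61285.4 TPM in controls). Their log2 fold changes ran from -3.68 (Aldh3a1) to -0.45 (Pax6). Krt5 (-0.86) held most of their sum with L-733,060, at a mean of 9367.8 TPM. All 5 conjunctival markers were higher (27271 to 30257.7 TPM with L-733,060 and 11361.5 to 13177.7 TPM in controls). So were all 4 proliferation markers (243 to 315 TPM with L-733,060 and 103 to 111 TPM in controls). The 6 smooth muscle markers summed to 118 to 190.02 TPM with L-733,060 and 25.2 to 28.8 TPM in controls, most of it from Acta2 and Tagln. Of 5 tested, 3 were higher (Acta2, Tagln and Actg2) and 1 lower (Myh11, log2 fold change -0.96). The 6 lens markers varied within both groups (74.8 to 307 TPM with L-733,060 and 57.5 to 645 TPM in controls), with Mip higher and the other 5 not past the threshold. The 10 skeletal muscle markers were scarce (15.7 to 19.7 TPM with L-733,060 and 26.6 to 41.5 TPM in controls), with 1 lower of 3 tested, as were the 8 lacrimal acinar markers, of which Scgb2b24, Scgb1b24, Dcpp1 and Dcpp2 had 0 counts in all samples and the rest at most 2.29 TPM in sum, with Car6 tested and lower. The part of these cell mixtures in the results below was not tested, and in bulk tissue fewer cells of a type and less RNA per cell cannot be told apart.

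With L-733,060, chaperone genes of the limbus changed in both directions. The cytosolic Hspa1a, Hspa1b and Hspb1, all inducible by stress, fell to between 0.334 and 0.438 of the control level, while the constitutive Hspa8, the HSP110 protein gene Hspa4l, the main ER chaperones Hspa5 and Hsp90b1, and the mitochondrial Hspa9 and Hspd1 rose by 1.49-fold to 4.95-fold. Other inducible members went in different directions. Hsp90aa1 and Hsph1 rose (log2 fold change 0.64 and 0.52) and Dnajb1 was not past the threshold (-0.09). Bag3 fell (-0.60), though its groups overlapped. Of the 81 members, 73 had enough counts to be tested. Of these 16 rose (21.9%) and 14 fell (19.2%). Among all tested genes 21.4% rose, 19.9% fell and 41.3% did either, so the shares called were near those of the whole table. In 40 of the 73 the samples of the groups were fully apart (54.8%), as they were in 52.0% of all tested genes. The median log2 fold change was 0.01 over the tested members and 0.00 over all tested genes. In the cytosol 9 of 44 tested members rose and 9 fell (median log2 fold change 0.00). In the ER 4 of 13 rose and 1 fell (median 0.28), in mitochondria 3 of 8 rose and 2 fell (median 0.08), and of the 8 tested members of another or unclear place 2 fell and 6 did not pass (median -0.29). Changes were moderate in size: 3 of the 16 that rose at least doubled (Hspa4l, Dnajc10 and Hsf2), and 4 of the 14 that fell were at least halved (Hspa1a, Hspa1b, Hspb1 and Dnajc11). Among all tested genes, 1684 of the 3367 that rose at least doubled, and 1305 of the 3129 that fell were at least halved.

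**Figure D1:**
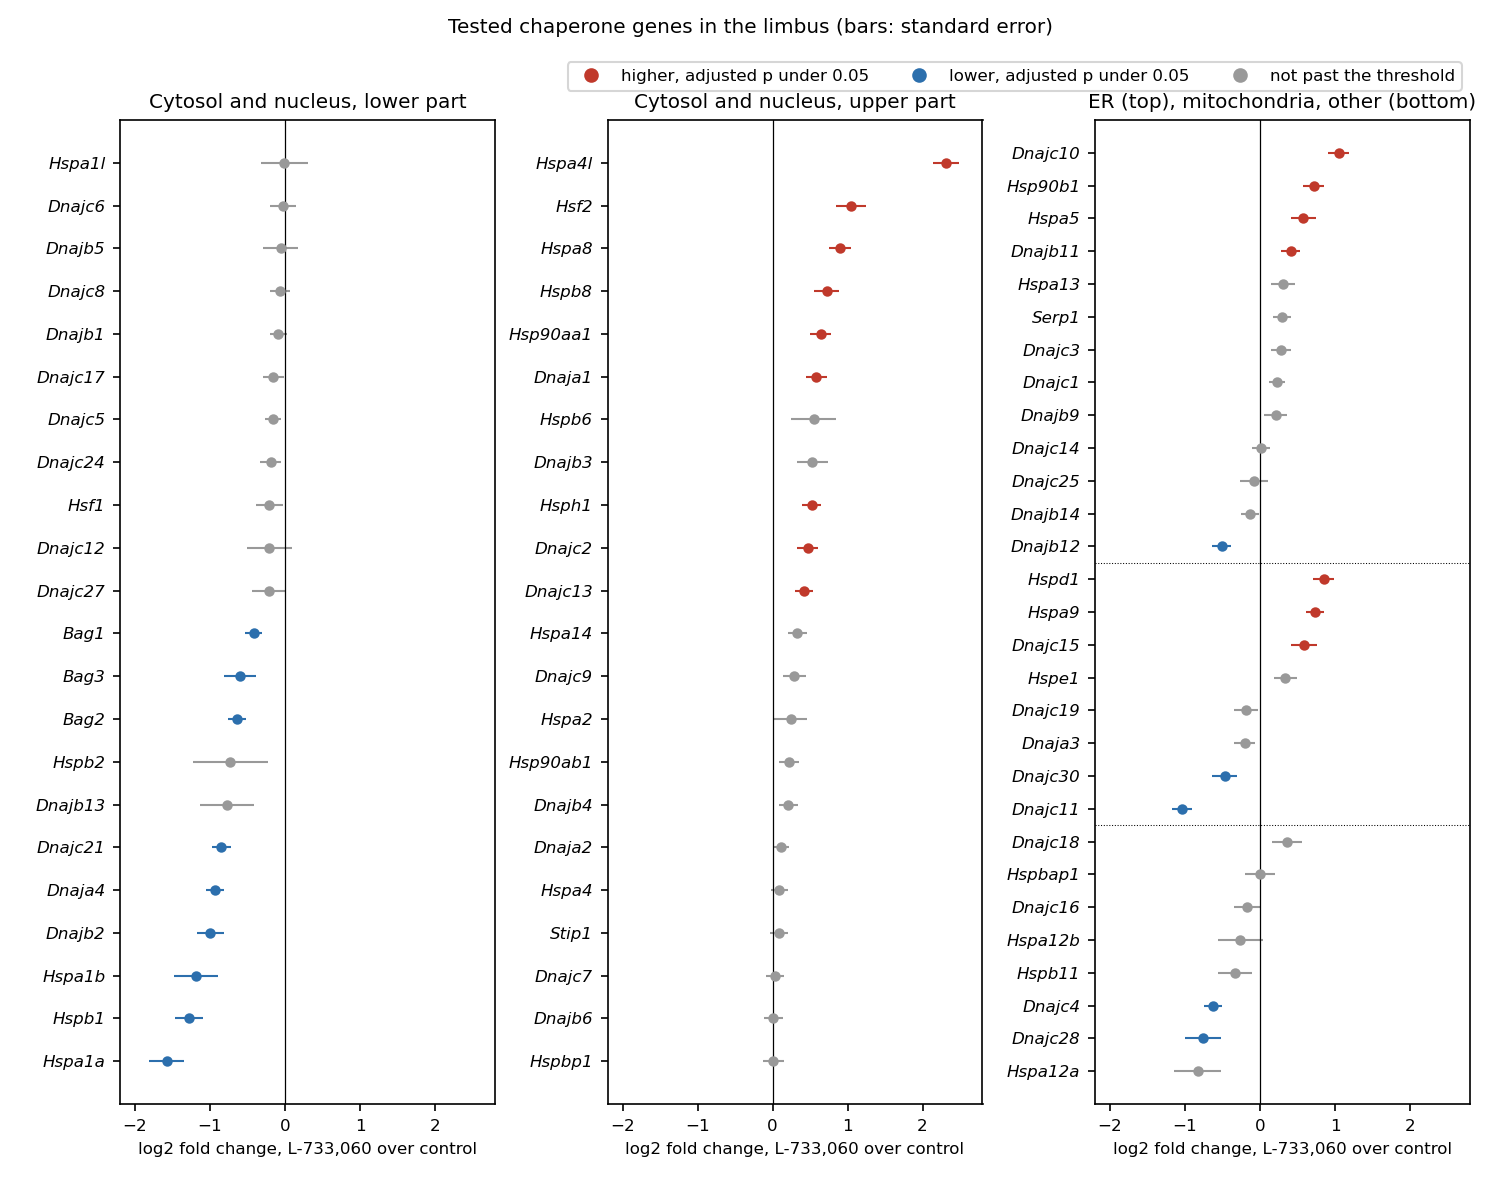
The log2 fold change of L-733,060 over control is plotted for the 73 tested members, ordered by size within each compartment, with bars of 1 standard error and colour for the call. The inducible Hspa1a, Hspb1 and Hspa1b stand at the bottom of the cytosolic genes and Hspa4l at the top, and the ER members lie mostly right of 0.

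Of the factors that control heat shock genes, Hsf2 rose and Hsf1 did not pass the test, and the difference between them was not tested. Hsf1 (chromosome 15, 76477362 to 76501155, plus strand, mm10, as all positions here), the main factor of the heat shock response, measured 13.4, 12.4 and 18.5 normalised CPM in L-733,060 samples 1 to 3, against 19.15, 16.96 and 15.4 in controls 1 to 3. The groups overlapped, since L-733,060 sample 3 lay within the range of the controls. With all samples the log2 fold change was -0.21 (SE 0.18; edgeR adjusted p = 0.367), not past the threshold, and without L-733,060 sample 3 it was -0.42 (edgeR adjusted p = 0.0463). Hsf2 (chromosome 10, 57483766 to 57513143, plus strand), a related factor known for roles in development and as a partner of Hsf1, measured 7.41, 9.42 and 7.51 normalised CPM in L-733,060 samples 1 to 3, against 3.47, 3.81 and 4.49 in controls. All L-733,060 samples lay above all controls, and the log2 fold change was 1.04 (SE 0.20; edgeR adjusted p = 0.00126). These are RNA levels, whereas Hsf1 is mainly controlled through its protein.

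Inducible HSP70 fell the most. Hspa1a (chromosome 17, 34969359 to 34972156, minus strand) measured 42.6, 44.7 and 84.5 normalised CPM in L-733,060 samples 1 to 3, against 187, 145 and 182 in controls. Its neighbour Hspa1b (34956429 to 34959238, minus strand) measured 139, 129.9 and 319.6 normalised CPM with L-733,060, against 537, 371 and 438 in controls. In both genes L-733,060 sample 3 was the nearest to the controls, and yet no L-733,060 sample reached a control. The log2 fold changes were -1.58 for Hspa1a (SE 0.23; edgeR adjusted p = 0.00023) and -1.19 for Hspa1b (SE 0.29; edgeR adjusted p = 0.0064), and without L-733,060 sample 3 they were -1.99 and -1.75. The transcripts are so alike that 47.1% of the windows of 100 bases in Hspa1a also occur, letter for letter, in Hspa1b, so the split of reads between them is uncertain. Their sum was 193 ± 110 TPM with L-733,060 and 462 ± 97.9 TPM in controls (SD, n = 3 each), without overlap of the groups (exact permutation test, two-sided p = 0.1, the smallest that 3 against 3 samples allow). The adjoining Hspa1l, an HSP70 gene mostly used in the testis that begins 546 bases from Hspa1a on the other strand, had a log2 fold change of -0.01 (SE 0.31), which did not pass (edgeR adjusted p = 0.99).

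The constitutive HSP70 went the other way. Hspa8 (chromosome 9, 40801276 to 40805202, plus strand), the abundant HSP70 that also strips the coat from clathrin vesicles, measured 1339.8, 1166 and 982 normalised CPM in L-733,060 samples 1 to 3, against 532, 671 and 670.0 in controls. All L-733,060 samples were above all controls, with a log2 fold change of 0.90 (SE 0.15; edgeR adjusted p = 0.000561). The TPM of Hspa1a and Hspa1b together, divided by that of Hspa8, was 0.102, 0.112 and 0.308 with L-733,060, against 1.02, 0.576 and 0.694 in controls. On the log2 scale this ratio differed by -2.29 (exact permutation test, two-sided p = 0.1, the smallest possible), and the groups did not overlap. Hspa2 and Hspa14, the remaining cytosolic HSP70 genes, had log2 fold changes of 0.24 and 0.33 and did not pass the test (edgeR adjusted p = 0.405 and 0.061).

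The HSP110 genes, whose products recharge HSP70 with ATP, included the member with the largest rise. Hspa4l (chromosome 3, 40744500 to 40796103, plus strand) measured 67.0, 72.1 and 47.8 normalised CPM in L-733,060 samples 1 to 3, against 13.9, 11.9 and 12.0 in controls. Every L-733,060 sample stood far above the highest control, and the rise was 4.95-fold (log2 fold change 2.31, SE 0.17; edgeR adjusted p = 1.22e-06). Hsph1 (chromosome 5, 149616843 to 149636498, minus strand) measured 46.8, 43.2 and 35.8 normalised CPM with L-733,060, against 28.9, 30.2 and 28.4 in controls, without overlap (log2 fold change 0.52, SE 0.13; edgeR adjusted p = 0.00741). Hspa4, the closest relative of Hspa4l in the list, measured 0.09 on the same log2 scale (SE 0.11) and did not pass (edgeR adjusted p = 0.566).

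Of the cytosolic HSP90 genes, 1 passed the test. Hsp90aa1 (chromosome 12, 110691036 to 110696395, minus strand), the more inducible form, measured 695, 666 and 532 normalised CPM in L-733,060 samples 1 to 3, against 357, 457 and 402 in controls. The groups did not overlap, and the log2 fold change was 0.64 (SE 0.14; edgeR adjusted p = 0.00369). Hsp90ab1 (chromosome 17, 45567778 to 45573261, minus strand), the constitutive form, measured 1000.1, 892 and 979 normalised CPM with L-733,060, against 928, 700.1 and 842 in controls, with overlapping groups and a log2 fold change of 0.22 (SE 0.13; edgeR adjusted p = 0.218). Whether the forms differed was tested by their ratio: Hsp90aa1 over Hsp90ab1 was 0.582 ± 0.0928 with L-733,060 and 0.444 ± 0.12 in controls (ratio of TPM, SD, n = 3 each; exact permutation test, two-sided p = 0.2, where 0.1 is the smallest possible), with overlapping groups. No window of 50 bases is shared letter for letter between the transcripts of this pair.

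**Figure D2:**
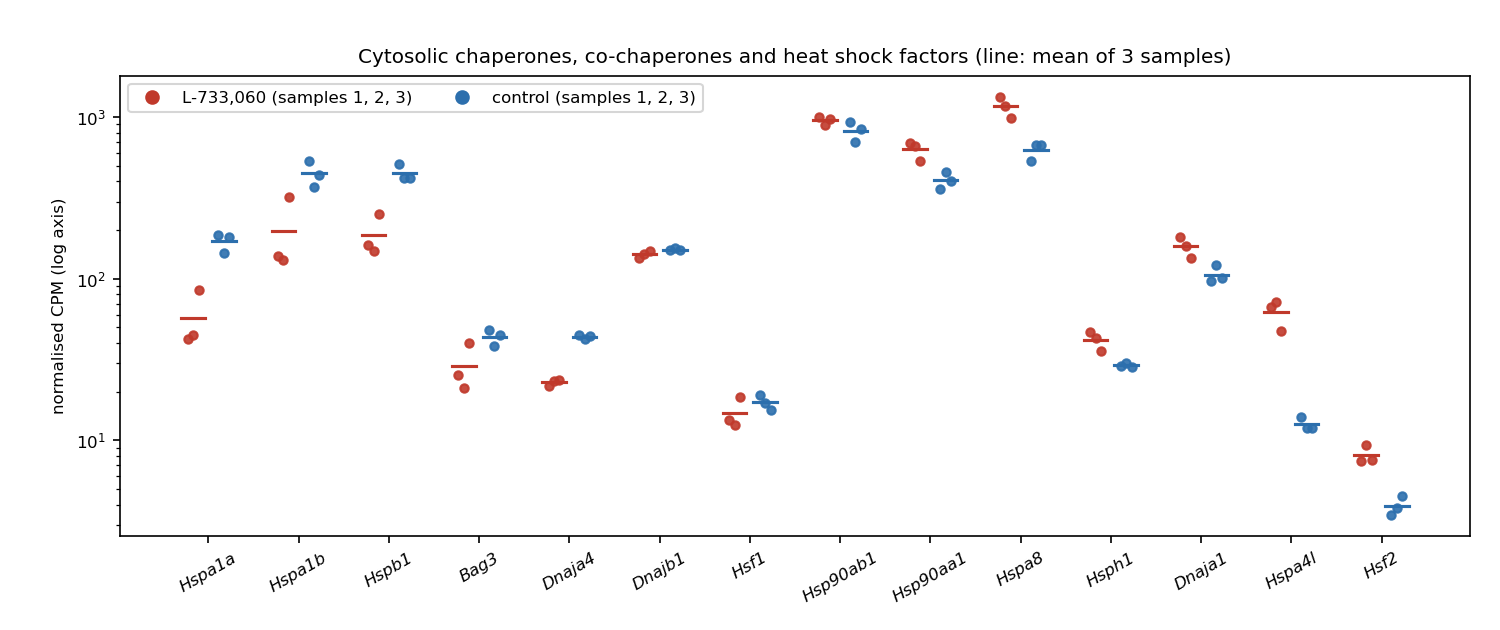
Normalised CPM (log axis) of 14 cytosolic members is shown for each sample, L-733,060 in red to the left of control in blue, with a line at the mean of 3 samples. Hspa1a, Hspa1b and Hspb1 are lower with L-733,060, with sample 3 the highest of its group, while Hspa8, Hsp90aa1, Hsph1, Dnaja1, Hspa4l and Hsf2 are higher in every L-733,060 sample than in any control.

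Of the small heat shock proteins, Hspb1 fell and Hspb8 rose. Hspb1 (chromosome 5, 135887919 to 135889563, plus strand), also known as HSP25 in the mouse, measured 161, 147 and 251 normalised CPM in L-733,060 samples 1 to 3, against 515, 423 and 419.9 in controls. All L-733,060 samples lay below all controls, with sample 3 again the nearest to them, and the log2 fold change was -1.28 (SE 0.19; edgeR adjusted p = 0.000243). Hspb8 (chromosome 5, 116408491 to 116422864, minus strand), which works with Bag3 in the selective autophagy of unfolded proteins, measured 28.5, 30.2 and 24.1 normalised CPM with L-733,060, against 20.9, 15.1 and 14.4 in controls. Here the L-733,060 samples were all higher (log2 fold change 0.72, SE 0.17; edgeR adjusted p = 0.00477). Hspb6 and Hspb2, small heat shock proteins best known from muscle, did not pass the test (log2 fold change 0.55 and -0.73, edgeR adjusted p = 0.163 and 0.27), at a level of at most 4.64 TPM in any sample. Hspb2 lies wholly within the range of Cryab on the other strand, and since no source used here gives the strand mode of the counting, reads of Hspb2 cannot be told apart from those of Cryab. The alpha crystallin Cryab, a relative outside the members, fell to 53.4 ± 6.18 normalised CPM with L-733,060, against 156 ± 26.5 in controls (SD, n = 3 each; log2 fold change -1.55, SE 0.15; edgeR adjusted p = 9.97e-06), while the log2 fold change of Cryaa, the lens form, was -0.81 and not past the threshold (edgeR adjusted p = 0.349). Hspb3, Hspb7 and Hspb9 had at most 7 counts over the L-733,060 samples and at most 8 over the controls.

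The BAG co-chaperones fell, with calls of unequal firmness. Bag2 (chromosome 1, 33745484 to 33757750, minus strand), which restrains the ubiquitin ligase Stub1, measured 31.8, 27.1 and 32.1 normalised CPM in L-733,060 samples 1 to 3, against 50.003, 47.9 and 44.4 in controls (log2 fold change -0.64, SE 0.12; edgeR adjusted p = 0.00145). Bag1 (chromosome 4, 40936398 to 40948294, minus strand), which links HSP70 to the proteasome, measured 64.6, 63.6 and 74.0 normalised CPM with L-733,060, against 90.6, 88.7 and 91.2 in controls (log2 fold change -0.42, SE 0.11; edgeR adjusted p = 0.0112). In both genes the groups were apart, but the call for Bag1 was lost without control 3 (edgeR adjusted p = 0.0515) or L-733,060 sample 1 (0.0548). Bag3 (chromosome 7, 128523583 to 128546981, plus strand), the Hsf1-inducible partner of Hspb8, measured 25.5, 21.03 and 40.03 normalised CPM with L-733,060, against 48.1, 38.1 and 45.0 in controls. The groups overlapped through L-733,060 sample 3, and the log2 fold change of -0.60 (SE 0.21; edgeR adjusted p = 0.036) was no longer past the threshold without control 1 (edgeR adjusted p = 0.125), control 3 (0.0962), L-733,060 sample 1 (0.121) or L-733,060 sample 2 (0.11), or with libraries scaled by total counts (0.0825). Stip1 (chromosome 19, 7020696 to 7040026, minus strand), which passes clients from HSP70 to HSP90, measured 103, 82.7 and 93.6 normalised CPM with L-733,060, against 92.7, 85.2 and 87.1 in controls, with overlapping groups. Neither Stip1 nor Hspbp1, a nucleotide exchange factor, passed the test (log2 fold change 0.08 and 0.01, edgeR adjusted p = 0.639 and 0.95).

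Cytosolic and nuclear J proteins were the largest family, with 24 members, of which 22 were tested. Of these 3 rose, 3 fell and 16 did not pass, so that 27.3% were called, against 41.3% of all tested genes. Dnaja1 (chromosome 4, 40722468 to 40734965, plus strand), a general partner of Hspa8, measured 181, 160.1 and 135 normalised CPM in L-733,060 samples 1 to 3, against 96.4, 121 and 100.2 in controls. All L-733,060 samples lay above the controls (log2 fold change 0.58, SE 0.14; edgeR adjusted p = 0.00587). Its relative Dnaja4 (chromosome 9, 54698848 to 54716317, plus strand) measured 21.7, 23.4 and 23.8 normalised CPM with L-733,060, against 44.9, 42.4 and 44.0 in controls. The samples within each group lay close together, with a wide gap between the groups (log2 fold change -0.93, SE 0.12; edgeR adjusted p = 7.32e-05). Dnajc21 (chromosome 15, 10446763 to 10470568, minus strand), which acts in the assembly of the large ribosomal subunit, measured 49.3, 49.4 and 37.0 normalised CPM with L-733,060, against 78.3, 84.4 and 82.6 in controls. It was lower in each L-733,060 sample than in any control (log2 fold change -0.85, SE 0.13; edgeR adjusted p = 0.000387). Dnajb1 (chromosome 8, 83608175 to 83612653, plus strand), the classic inducible HSP40, measured 135, 143 and 148 normalised CPM with L-733,060, against 149.7, 155 and 150.1 in controls. The groups were apart by a narrow margin, and the log2 fold change of -0.09 (SE 0.11; edgeR adjusted p = 0.511) was not past the threshold. The remaining 3 calls, named after their values were seen, were Dnajb2, a sorter of ubiquitinated clients (1.998-fold lower, edgeR adjusted p = 0.00081), Dnajc2, which sits on the ribosome (log2 fold change 0.47, edgeR adjusted p = 0.0183), and Dnajc13, of endosomes (log2 fold change 0.42, edgeR adjusted p = 0.0132). Dnajc2 lost its call without control 1, 2 or 3 or L-733,060 sample 1 or 2 (edgeR adjusted p from 0.0536 to 0.0938), and Dnajc13 without control 3 (0.083). Dnajb3, not past the threshold (log2 fold change 0.53, edgeR adjusted p = 0.067), lies within the Ugt1a genes on the other strand, whose reads cannot be told apart from its own here. Dnajb7 had 13 counts over the L-733,060 samples and 16 over the controls, and Dnajb8 had 0 in all samples, so neither was tested.

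In the ER, the main chaperones rose. Hspa5 (chromosome 2, 34772090 to 34776529, plus strand), also called BiP, the HSP70 of the ER, measured 1106, 817 and 653 normalised CPM in L-733,060 samples 1 to 3, against 575, 622 and 526 in controls. The L-733,060 samples spread widely but all lay above the controls (log2 fold change 0.58, SE 0.17; edgeR adjusted p = 0.0194). This call rested on single samples, since without L-733,060 sample 1 the log2 fold change was 0.36 (edgeR adjusted p = 0.103), and without control 1 or control 3 the adjusted p was 0.0661 and 0.0783. Hsp90b1 (chromosome 10, 86690841 to 86705444, minus strand), the HSP90 of the ER that folds integrins and Toll-like receptors, measured 927, 841 and 664 normalised CPM with L-733,060, against 481, 529 and 468 in controls. Its groups did not overlap, and the log2 fold change was 0.72 (SE 0.14; edgeR adjusted p = 0.00168). Hspa5 overlaps Rabepk on the other strand by 1921 bases, but Rabepk held only 760 counts with L-733,060 and 712 in controls, beside 52857 counts with L-733,060 and 37975 in controls for Hspa5.

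Of the 9 J proteins of the ER, 2 rose and 1 fell (33.3% called, against 41.3% of all tested genes). Dnajc10 (chromosome 2, 80315446 to 80354055, plus strand), which reduces wrong disulfide bonds before degradation, measured 93.5, 101 and 79.8 normalised CPM in L-733,060 samples 1 to 3, against 39.2, 49.5 and 43.3 in controls. Every L-733,060 sample was far above the controls (log2 fold change 1.05, SE 0.14; edgeR adjusted p = 8.49e-05). Dnajb11 (chromosome 16, 22857845 to 22879634, plus strand), a soluble partner of Hspa5, measured 67.4, 54.4 and 55.9 normalised CPM with L-733,060, against 47.6, 42.4 and 44.0 in controls (log2 fold change 0.41, SE 0.13; edgeR adjusted p = 0.0218). Its call was lost without control 2 (edgeR adjusted p = 0.0895), control 3 (0.0836) or L-733,060 sample 1 (0.123). Dnajb12 (chromosome 10, 59879583 to 59899296, plus strand), anchored in the ER membrane with its J domain towards the cytosol, measured 19.5, 22.7 and 24.9 normalised CPM with L-733,060, against 33.3, 30.6 and 31.6 in controls. This was the 1 ER member that fell (log2 fold change -0.51, SE 0.13; edgeR adjusted p = 0.00919), and the call was lost without L-733,060 sample 1 (0.0573).

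Targets of the ER stress response did not all pass. Dnajb9, a J protein induced strongly by that response, measured 32.6, 31.6 and 24.0 normalised CPM in L-733,060 samples 1 to 3, against 22.8, 25.2 and 28.4 in controls, with overlapping groups (log2 fold change 0.21, SE 0.15; edgeR adjusted p = 0.294). Dnajc3, which restrains the kinase PERK, measured 263, 258 and 209 normalised CPM with L-733,060, against 182, 218 and 201 in controls. Serp1 (chromosome 3, 58521969 to 58525884, minus strand), a small protein at the translocon, measured 187, 180.25 and 153 normalised CPM with L-733,060, against 147, 139 and 139 in controls. The groups of Dnajc3 overlapped and those of Serp1 did not, and their log2 fold changes were 0.28 and 0.29 (edgeR adjusted p = 0.103 and 0.0654). Both passed when libraries were scaled by total counts (0.0406 and 0.0254) and when L-733,060 sample 3 was left out (0.0201 and 0.0178). Scaling by total counts moved the whole table upward, with a median log2 fold change of 0.052 over all tested genes. It gave 3761 genes higher and 2642 lower. The number of ER members that rose depended on single samples, with 2 in place of 4 without control 3 or without L-733,060 sample 1, and 7 without L-733,060 sample 3. Hspa13, Dnajc1, Dnajc14, Dnajc25 and Dnajb14 did not pass, with log2 fold changes of -0.13 to 0.31.

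In mitochondria Hspa9 and Hspd1, both of the matrix, rose, while 2 J proteins fell. Hspa9 (chromosome 18, 34937414 to 34954351, minus strand), the mitochondrial HSP70 that pulls proteins through the inner membrane, measured 175, 171 and 144 normalised CPM in L-733,060 samples 1 to 3, against 99.8, 101 and 93.4 in controls. Hspd1 (chromosome 1, 55077833 to 55088243, minus strand), the chaperonin HSP60, measured 185, 175 and 134 normalised CPM with L-733,060, against 85.8, 101 and 87.6 in controls. For both, every L-733,060 sample exceeded every control, and the log2 fold changes were 0.74 (SE 0.12; edgeR adjusted p = 0.000446) and 0.85 (SE 0.14; edgeR adjusted p = 0.000542). Hspe1 (55088148 to 55091317, plus strand), the lid of that chaperonin, measured 100.2, 80.5 and 81.7 normalised CPM with L-733,060, against 58.7, 83.8 and 64.9 in controls. The groups overlapped through control 2, and the log2 fold change of 0.34 (SE 0.15; edgeR adjusted p = 0.0931) was not past the threshold, though it was without control 2 (0.0286) or L-733,060 sample 3 (0.046) and with libraries scaled by total counts (0.0496). Hspd1 and Hspe1 are encoded head to head and overlap by 96 bases. The ratio of Hspd1 to Hspe1 was 0.56 ± 0.0807 with L-733,060 and 0.397 ± 0.0382 in controls (ratio of TPM, SD, n = 3 each), without overlap (exact permutation test, two-sided p = 0.1, the smallest possible).

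Among the 5 mitochondrial J proteins 1 rose and 2 fell (60% called, against 41.3% of all tested genes). Dnajc11 (chromosome 4, 151933720 to 151981959, plus strand), associated with the machinery that shapes the cristae, measured 49.6, 37.6 and 42.2 normalised CPM in L-733,060 samples 1 to 3, against 88.8, 87.8 and 90.2 in controls. The controls lay close together and well above the L-733,060 samples (log2 fold change -1.04, SE 0.13; edgeR adjusted p = 5.96e-05). Dnajc15 (chromosome 14, 77826217 to 77874917, minus strand), a brake on the respiratory chain, measured 24.5, 18.8 and 17.1 normalised CPM with L-733,060, against 12.998, 15.1 and 11.9 in controls (log2 fold change 0.59, SE 0.17; edgeR adjusted p = 0.0156). Dnajc30, of the inner membrane, measured 8.09, 8.56 and 11.5 normalised CPM with L-733,060, against 12.7, 13.4 and 13.1 in controls (log2 fold change -0.47, SE 0.17; edgeR adjusted p = 0.047). Dnajc15 lost its call without control 1, control 3 or L-733,060 sample 1 (edgeR adjusted p from 0.059 to 0.0953). Dnajc30 lost its call without control 1, 2 or 3 or L-733,060 sample 1 or 2 (from 0.0876 to 0.179), and with libraries scaled by total counts (0.0937). Dnajc30 overlaps Bud23, and Dnajc19 overlaps Fxr1, on the other strand, so their reads may be mixed. Dnaja3 (chromosome 16, 4684070 to 4707695, plus strand), a J protein of the matrix, measured 20.2, 17.8 and 20.02 normalised CPM with L-733,060, against 25.6, 21.1 and 19.8 in controls, with overlapping groups. Neither Dnaja3 nor Dnajc19, a part of the import motor, passed (log2 fold change -0.20 and -0.18, edgeR adjusted p = 0.297 and 0.382).

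**Figure D3:**
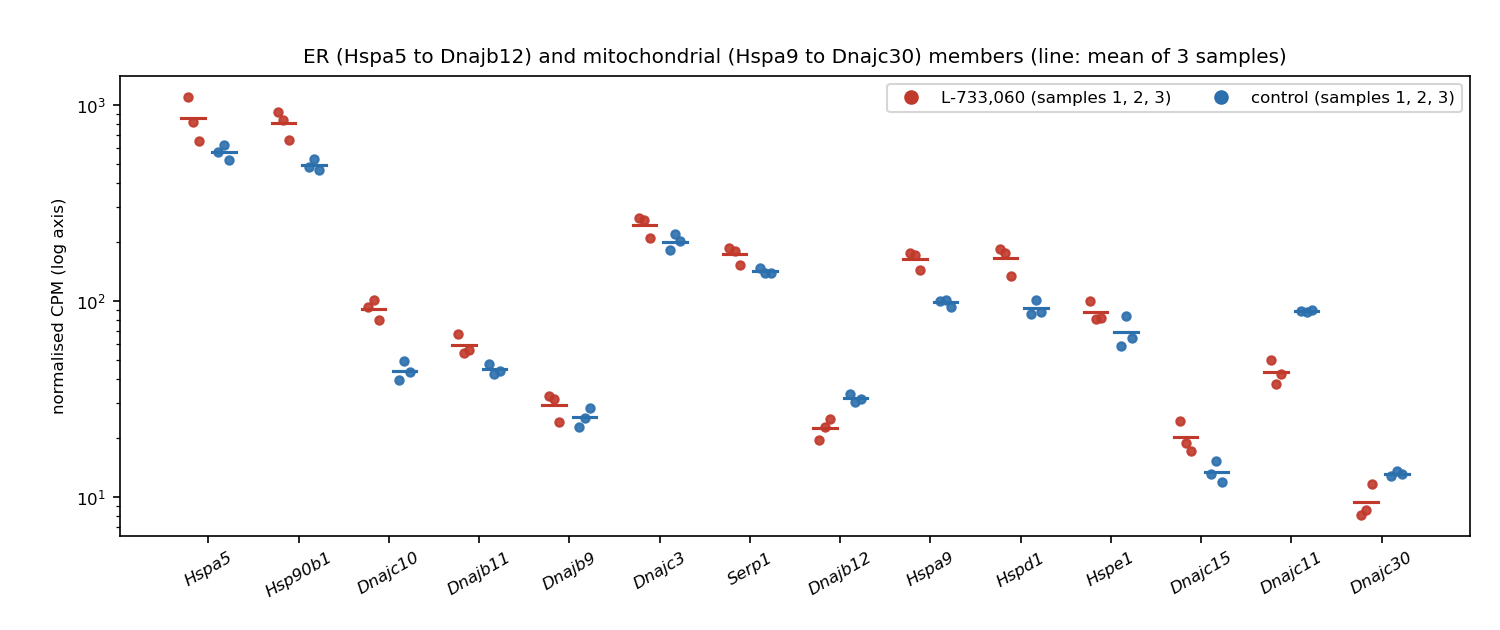
Normalised CPM (log axis) of 8 ER members (Hspa5 to Dnajb12) and 6 mitochondrial members (Hspa9 to Dnajc30) is shown for each sample, L-733,060 in red to the left of control in blue, with a line at the mean of 3 samples. Hsp90b1, Dnajc10, Hspa9 and Hspd1 are higher in every L-733,060 sample, Dnajc11 is lower in each, and sample 1 of L-733,060 is the highest for Hspa5.

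Of the 11 members of another or unclear place, 8 were tested. Dnajc4 (chromosome 19, 6987911 to 6992591, minus strand) measured 21.0, 21.1 and 22.7 normalised CPM in L-733,060 samples 1 to 3, against 36.0, 33.2 and 31.2 in controls, without overlap (log2 fold change -0.63, SE 0.12; edgeR adjusted p = 0.00161). Dnajc28 measured 4.04, 5.24 and 3.08 normalised CPM with L-733,060, against 6.34, 6.06 and 8.51 in controls (log2 fold change -0.76, SE 0.24; edgeR adjusted p = 0.0218), a call that was lost without control 3 (0.106) or L-733,060 sample 1 (0.0634). Hspa12a, Hspa12b, Hspb11, Hspbap1, Dnajc16 and Dnajc18 did not pass, and Dnajc5b, Dnajc5g and Dnajc22 had at most 11 counts over the L-733,060 samples and at most 13 over the controls.

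Summed over members, on the TPM scale that allows for gene length, the cytosolic sums of the groups overlapped while their make-up differed. The cytosolic members summed to 4504 ± 206 TPM with L-733,060 and 4593 ± 357 TPM in controls (SD, n = 3 each; exact permutation test, two-sided p = 0.8). Within the sum over all members, Hspb1 took 4.99, 5.06 and 8.999% in L-733,060 samples 1 to 3, against 18.4, 15.4 and 15.7% in controls. Hspa8 took 17.8, 17.2 and 15.1% with L-733,060, against 8.15, 10.5 and 10.8% in controls, so that the order of these genes was reversed between the groups. The ER members summed to 1738 ± 233 TPM with L-733,060 and 1183 ± 35.9 TPM in controls, and the mitochondrial members to 617 ± 40.8 TPM with L-733,060 and 466 ± 27.3 TPM in controls (SD, n = 3 each). In both compartments every L-733,060 sample exceeded every control (exact permutation test, two-sided p = 0.1 for each, the smallest possible). These sums were carried by a few genes: Hspa8, Hsp90ab1, Hspb1, Hspa5, Hsp90b1, Hsp90aa1, Hspa1b and Hspe1 held 64.4 to 67.1% of the summed TPM of all members with L-733,060 and 62.3 to 63.8% in controls.

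**Figure D4:**
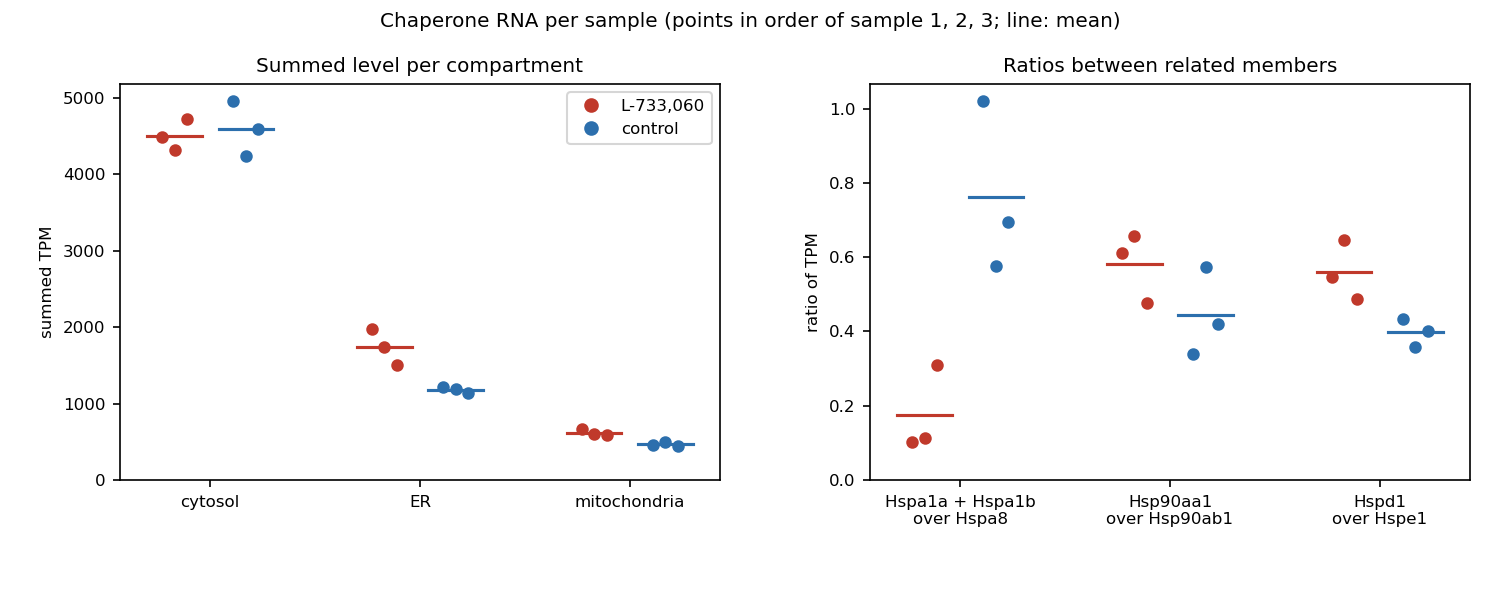
The left panel shows summed TPM of the cytosolic, ER and mitochondrial members in each sample, and the right panel shows ratios of TPM between related members, with L-733,060 in red to the left of control in blue and a line at the mean of 3 samples. The ER and mitochondrial sums do not overlap between the groups while the cytosolic sums do, and the ratio of Hspa1a and Hspa1b to Hspa8 is at most 0.308 with L-733,060 and at least 0.576 in controls.

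A further 53 genes of the chaperone network, grouped by function, were all tested, and 13 rose, 5 fell and 35 did not pass (median log2 fold change 0.13). This is 24.5% higher and 9.43% lower, where 21.4% of all tested genes rose and 19.9% fell. Of 13 ER folding genes 7 rose and 6 did not pass. Those that rose included the disulfide oxidase Ero1a, at 64.6 ± 8.38 normalised CPM with L-733,060 and 24.0 ± 1.48 in controls (SD, n = 3 each; log2 fold change 1.43, SE 0.13; edgeR adjusted p = 8.2e-06), and the isomerase Pdia3 (log2 fold change 0.72; edgeR adjusted p = 0.000863), whereas Hyou1, the nucleotide exchange factor of Hspa5, did not pass (-0.18; edgeR adjusted p = 0.33). Of the 8 subunits of the cytosolic chaperonin TRiC, 4 rose (Cct2, Cct3, Cct6a and Cct8) and 4 did not pass. Of 10 partners of HSP90 and HSP70, Ahsa2, an activator of HSP90, rose, and Fkbp5, an HSP90 partner of steroid receptors, fell to 35.3 ± 11.4 normalised CPM with L-733,060, against 100.1 ± 15.6 in controls (SD, n = 3 each; log2 fold change -1.50, SE 0.20; edgeR adjusted p = 0.000132). Of the BAG family outside the members, Bag5 (log2 fold change -0.58; edgeR adjusted p = 0.00239) and Bag6 (-0.91; edgeR adjusted p = 0.00307) fell and Bag4 did not pass. The 6 prefoldin genes did not pass in edgeR, and Pfdn5 alone had an unadjusted p under 0.05 (log2 fold change -0.32, edgeR adjusted p = 0.0652). Of 9 mitochondrial folding genes and proteases Afg3l2 rose and Hscb fell, and Hsf4 and Hsbp1 did not pass. The number of these network genes that rose was 13 with all samples, 6 without control 1, 4 without control 3 and 4 without L-733,060 sample 1. Over all tested genes the number that rose was 3367, 2721, 2766 and 2677 in the same fits.

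The fall of Hspa1a, Hspa1b, Hspb1 and Bag3 was smaller in L-733,060 sample 3 than in the others of its group. The summed immediate early genes, known to be switched on within minutes of a stimulus, were also highest in L-733,060 sample 3 within that group. They summed to 260, 223 and 411 TPM in L-733,060 samples 1 to 3, against 489, 386 and 475 TPM in controls 1 to 3, and 4 of 7 fell (Fos, Junb, Egr1 and Ier2). Junb and Jun made up most of the sum, and single genes differed. Fos, which fell the most of the 7, measured 16.4, 14.5 and 11.7 normalised CPM in L-733,060 samples 1 to 3, against 40.1, 44.9 and 41.7 in controls, and was thus lowest in L-733,060 sample 3, as was Atf3. Nearness of L-733,060 sample 3 to the controls was not particular to Hspa1a, Hspa1b, Hspb1 and Bag3. Among members that rose, Hspa8, Hsp90aa1, Hspa4l and Hspd1 were also nearest to the controls in that sample. Dnajc21, which fell, was farthest from them there. Over all tested genes, 3722 rose and 3788 fell without L-733,060 sample 3, against 3367 and 3129 with all samples. The part of the immediate early genes in the results on the chaperones was not tested.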

How the data were processed

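The authors deposited read counts per gene and sample, with TPM and a gene length (other columns of the same table), for 6 limbus samples, 3 per group. Per the submitters' processing notes, reads went through bcl2fastq, HISAT2 2.1.0 and HTSeq 0.11.2 on mm10. The notes leave out the strand mode and the read length, not given in the sources used here. No molecular identifiers are described, so counts include PCR copies. Counts were fitted in R 4.3.3 with edgeR 4.0.16: filterByExpr (minimum count 10, minimum total 15) kept 15712 of 39089 genes, TMM set the library sizes, and a two-sided quasi-likelihood F test compared L-733,060 with control with Benjamini-Hochberg adjustment at 0.05. The standard error is the absolute log2 fold change over the square root of F. The deposited TPM was used for sums, ratios and levels across genes, tested by exact permutation over samples. Alternatives included DESeq2 1.42.0. The fit was tested on simulated data. Members, compartments, gene lists and tests were chosen with earlier results of these data known. Full values are given for members on a list of 25, and for up to 4 of smallest p per direction and compartment.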

Additional observations from a re-analysis of the deposited data

How the results depend on the processing

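Of the 30 calls among members, 20 held under every alternative run, which were DESeq2 size factors, total counts without TMM, no filter on low counts, at least 1 CPM in 3 samples, the DESeq2 Wald test, the replicate number as a block, and leaving out each sample in turn. The other 10 (Bag1, Bag3, Dnajb11, Dnajb12, Dnajc2, Dnajc13, Dnajc15, Dnajc28, Dnajc30 and Hspa5) were lost in at least 1 of these, by leaving out a sample or, for Bag3 and Dnajc30, also with total counts. No called member changed sign. Dnajb13, Dnajc3, Dnajc9, Hsf1, Hspa12a, Hspa13, Hspa14, Hspe1 and Serp1 gained a call in at least 1. Leaving out 1 sample gave 11 to 22 members higher and 10 to 15 lower, in the cytosol 7 to 11 higher and 7 to 10 lower, in the ER 2 to 7 higher and 0 to 1 lower, in mitochondria 2 to 4 higher and 1 to 2 lower, at other places 0 higher and 1 to 2 lower, and among the further network genes 4 to 18 higher and 5 to 6 lower. Calls over all tested genes also moved in these fits, with 2677 to 3722 higher and 2354 to 3788 lower. With all samples they were 3367 and 3129. With total counts 1 mitochondrial member fell in place of 2, while over all tested genes 3761 rose and 2642 fell. Summed as normalised CPM in place of TPM, the log2 difference was 0.09 for the cytosolic members (-0.03 in TPM) and 0.21 for all members (0.13 in TPM). Samples of the same number did not deviate together in every pair (correlations of -0.022, 0.273 and 0.133), and the labels tie no batch to the numbers, so the samples were not treated as paired. The summed lens markers did follow the numbers, at 181, 74.8 and 307 TPM in L-733,060 samples 1 to 3 and 174, 57.5 and 645 TPM in controls 1 to 3. A batch shared by number was adjusted for only in the fit with the replicate number as a block, and its presence was not itself tested. The block gave 4 higher ER members as before, lost no call among members, and added those of Dnajb13 (log2 fold change -0.82) and Hspa14 (0.33). Over all tested genes it gave 3609 higher and 3462 lower. For the 8 members with too few counts to be tested, no difference was detectable at this depth.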
